A study of Mus musculus with 12 samples.

Results

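The genes described here are 38 targets of the nuclear receptor PPARα and genes of fatty acid oxidation and ketone body synthesis, chosen by symbol from the 55401 genes of a mouse liver count table, in which each symbol was found. They were divided by the place of action of their products into 20 mitochondrial genes, 9 peroxisomal genes and 9 others. Among the peroxisomal genes, the products of Ech1 and Eci2 are also found in mitochondria. RNA from whole livers of male mice aged 7 to 10 weeks was sequenced in 12 libraries, 3 in each of 4 groups. Every mouse carried Fbxl5 alleles flanked by loxP sites. Control mice (FBXL5F/F) had no Cre, whereas FBXL5ΔDC mice (CD11c-Cre/Fbxl5F/F) also carried Cre recombinase under the CD11c promoter, which drives it chiefly in dendritic cells, a minor cell type of the liver. The Fbxl5 protein senses iron and directs a ubiquitin ligase to its substrate. Livers of each genotype came from mice without treatment, written 0 h, or from mice 6 h after an intraperitoneal injection of acetaminophen (APAP), an analgesic that injures the liver in overdose. The labels name doses of 300 and 500 mg/kg without saying which was used for these livers. Injected mice were fasted for 16 h before the injection and fed after it, and no label says whether the 0 h mice were fasted. Most of these genes respond to fasting, so the drug and the feeding history cannot be told apart in a comparison of 6 h with 0 h. No label says whether replicates came from separate litters or cages, and the p-values measure the spread between these libraries. In RNA from whole tissue, fewer cells of a type and less RNA per cell cannot be told apart.

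PPARα is activated by fatty acids and, as a partner of RXR, binds DNA at direct repeats of the half-site AGGTCA spaced by a base. In the fasted liver it raises the transcription of genes that take up, activate, transport and oxidise fatty acids. Fatty acids are activated to acyl-CoA, carried into mitochondria by the carnitine shuttle, and shortened by repeated rounds of dehydrogenation, hydration, dehydrogenation and thiolysis. Peroxisomes shorten very long and dicarboxylic chains by a like series of steps. Acetyl-CoA that is not burnt leaves the liver as ketone bodies, which feed other organs during fasting.

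Promoter windows from RefSeq (GRCm38.p6), running from 250 bases before to 50 after the annotated start, were matched for 33 of the 38 genes. The repeat AGGTCANAGGTCA, searched on both strands, was found in 13 of 32851 windows of all genes (0.0396%) and in no window of these 33 genes. The looser form GGNCANAGGNCA, whose matches include those of the strict form, was found in 263 windows (0.801%), of which 2 belong to Fabp1 and Acot4. Stretches of 100 bases that end just before the first transcribed base are shown for these 2 genes and for Acot1 and Acot3, the neighbours of Acot4 on chromosome 12, because the 3 Acot genes fell after acetaminophen in either genotype and Fabp1 did so in control livers. Capitals mark the match, which lies on the reverse strand, and all are written 5′ to 3′ on the plus strand.
Fabp1 (chr6:71199727-71199826): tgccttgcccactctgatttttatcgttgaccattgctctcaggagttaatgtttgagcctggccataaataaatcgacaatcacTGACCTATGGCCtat
Acot4 (chr12:84038279-84038378): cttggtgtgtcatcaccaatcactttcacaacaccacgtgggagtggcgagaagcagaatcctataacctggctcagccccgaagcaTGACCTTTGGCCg
Acot1 (chr12:84009390-84009489): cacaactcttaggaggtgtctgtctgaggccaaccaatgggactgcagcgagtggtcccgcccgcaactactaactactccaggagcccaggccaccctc
Acot3 (chr12:84052044-84052143): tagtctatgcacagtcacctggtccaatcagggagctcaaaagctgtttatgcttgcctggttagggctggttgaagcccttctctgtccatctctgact
The match ran from 15 to 4 bases before the start of Fabp1 and from 13 to 2 bases before that of Acot4. A match describes letters in a window and is no measure of binding.

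Total counts per library ran from 67173096 to 72512319, and 17585 genes were abundant enough to be tested, among them all 38. Levels are in CPM, each count taken relative to the total of its library after adjustment by a TMM factor (0.855 to 1.14). The first principal component of all tested genes (39.8% of the variance) placed the 6 untreated libraries between −67.0 and −57.5, control 6 h replicates 1 and 2 at −9.46 and −8.18, and the FBXL5ΔDC 6 h libraries between 97.7 and 107. Control 6 h replicate 3, at 86.8, lay near the FBXL5ΔDC 6 h libraries rather than near its own group, so the counts that use it, and the values of genes whose calls rest on it, are also given without it. Leaving out a library for that reason tends by itself to widen differences between the genotypes at 6 h. Fits without it therefore describe how the counts depend on it and are no test of those differences. Fbxl5 itself was measured at 20.1 ± 2.27 CPM in untreated control livers and 17.2 ± 5.99 CPM in untreated FBXL5ΔDC livers, and at 15.8 ± 3.01 and 18.6 ± 5.25 CPM at 6 h (SD, n = 3 each), which does not check a deletion in dendritic cells, since the whole liver supplies the count. The hepatocyte markers Alb and Hnf4a were measured in every library. A gene was called changed at a Benjamini-Hochberg adjusted p below 0.05 in edgeR's quasi-likelihood test over all tested genes. Log2 changes are given with their standard errors (SE).

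In untreated control livers the level per kilobase of exon ranged widely. Fabp1, the cytosolic fatty acid binding protein, stood highest at a mean of 3244 CPM per kilobase. Acaa1b, a peroxisomal thiolase, followed at 1403, Ehhadh, the peroxisomal bifunctional enzyme, at 769, and Acaa2, the mitochondrial thiolase, at 616 CPM per kilobase. The lowest were Pdk4, a kinase that inhibits pyruvate dehydrogenase, at 9.10, the fatty acid transporter Cd36 at 18.4, the peroxisomal thioesterases Acot3 at 18.6 and Acot4 at 21.1, and the receptor gene Ppara at 26.6 CPM per kilobase. The 38 genes together took 1.90 ± 0.282% of scaled counts in untreated control livers.

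**Figure D1:**
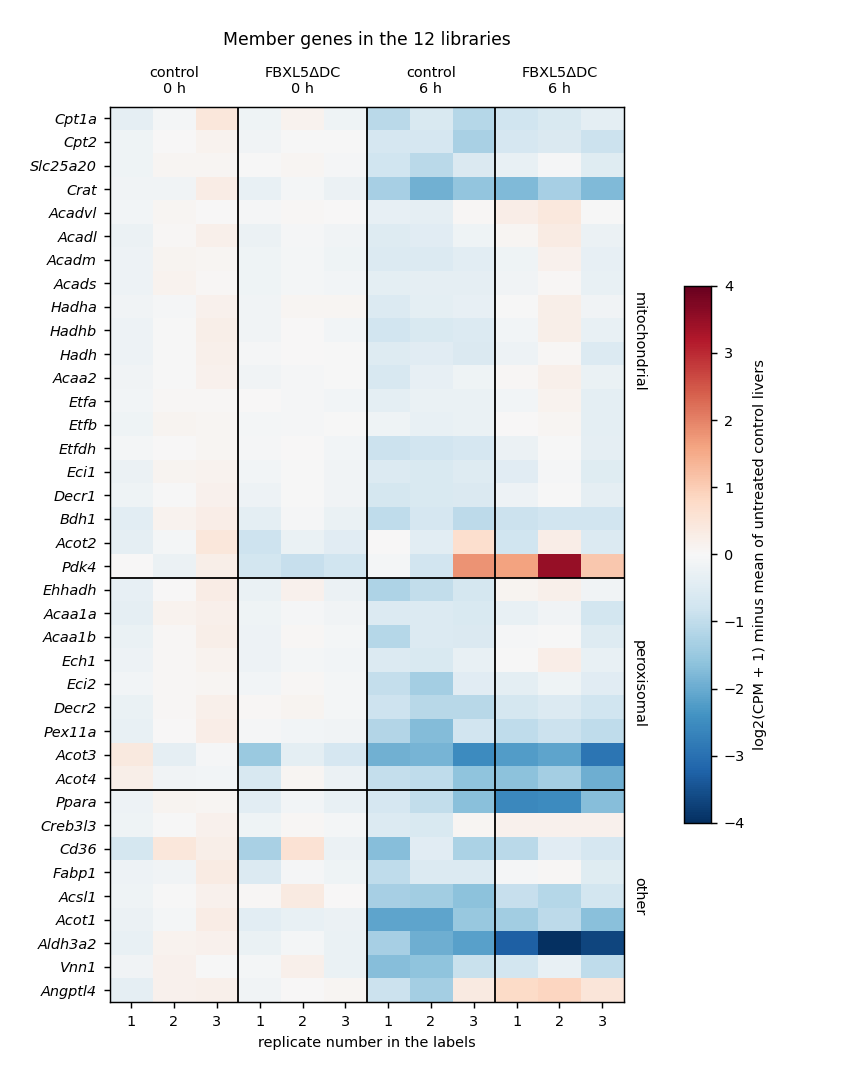
Level of each of the 38 genes in each of the 12 libraries, as log2(CPM + 1) minus the mean of the 3 untreated control libraries, with genes in rows by class and libraries in columns by group. Most genes are below the untreated mean in the control 6 h libraries, while in FBXL5ΔDC 6 h libraries the middle of the mitochondrial block lies near it, and Ppara, Acot3 and Aldh3a2 lie far below.

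In control livers, 25 of the 38 genes fell 6 h after acetaminophen and none rose. Over all tested genes, 4.20% fell and 6.36% rose. The fall reached 11 of 20 mitochondrial, 8 of 9 peroxisomal and 6 of 9 other genes. The median log2 change was −0.72 over the 38 genes against 0.03 over all tested genes. Changes were below 0 for 36 of the 38 and for 8363 of the 17585 tested genes. Summed levels of the 38 genes were 1.11 ± 0.11% of scaled counts at 6 h (n = 3). The number of falls was 16 without control 0 h replicate 3 and 9 when only these 6 libraries were fitted. Over all tested genes the number of falls went from 739 to 367 and 167 in the same fits. Without control 6 h replicate 3 there were 25 falls (3.86% of all tested genes fell and 5.23% rose in that fit), of which 22 were among the first 25.

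Ppara (chromosome 15, 85734983 to 85802819, plus strand, GRCm38) encodes the receptor. Its level was 88.4, 111 and 108 CPM in the untreated control livers and 62.9, 50.5 and 31.0 CPM at 6 h. The groups did not overlap, and replicate 3 was the lowest of the treated libraries. The change was −1.09 (SE 0.27, edgeR adjusted p = 0.0253). The call was lost without control 0 h replicate 2 (−1.03, edgeR adjusted p = 0.0866), without control 0 h replicate 3 (−1.05, adjusted p = 0.0778) and without control 6 h replicate 3 (−0.85, adjusted p = 0.0559). It was also lost with a replicate block (−1.07, edgeR adjusted p = 0.0547) and when only these 6 libraries were fitted (−1.09, adjusted p = 0.0654). Acsl1, whose product activates long-chain fatty acids to acyl-CoA, was measured at 1599, 1785 and 2006 CPM in untreated control livers. It stood at 704, 686 and 573 CPM at 6 h. Every treated library was below every untreated one by a wide gap, and the change was −1.46 (SE 0.15, edgeR adjusted p = 2.17e-04).

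The 4 genes grouped here as the carnitine shuttle, with the acetyltransferase gene Crat counted among them, all fell in control livers. Cpt1a, whose product makes acylcarnitine at the outer mitochondrial membrane and limits the rate of entry, was measured at 446.5, 539 and 778 CPM in untreated control livers and at 269, 377 and 259 CPM at 6 h. Its change was −0.96 (SE 0.21, edgeR adjusted p = 0.0136). Untreated replicate 3 was the highest library, and without it the change was −0.71 with an adjusted p of 0.0598. The fall of Crat, a carnitine acetyltransferase, had the largest size of the 4. It stood at 137, 138 and 186 CPM and then at 59.7, 39.1 and 50.6 CPM, with a wide gap between the groups (−1.62, SE 0.18, edgeR adjusted p = 2.92e-04). Cpt2, which turns acylcarnitine back into acyl-CoA inside the mitochondrion, changed by −0.86 and the carrier Slc25a20 by −0.82.

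Of the 11 genes of the β-oxidation spiral, 6 fell in control livers, with a median change of −0.51. Ehhadh (chromosome 16, 21761287 to 21787807, minus strand) carries out the hydration and dehydrogenation steps in the peroxisome. It was measured at 1811, 2290.2 and 2777 CPM in untreated control livers and at 951, 1139 and 1373 CPM at 6 h, without overlap (−0.99, SE 0.19, edgeR adjusted p = 0.00688). Hadhb, the thiolase subunit of the mitochondrial trifunctional protein, stood at 254, 286 and 342 CPM and then at 172, 192 and 201.5 CPM (−0.64, SE 0.15, edgeR adjusted p = 0.0186). Its call was lost without control 0 h replicates 2 or 3 or control 6 h replicate 1, with adjusted p-values of 0.0560, 0.0838 and 0.0535. Hadha, the subunit beside it, and the chain-length-specific dehydrogenases Acadvl, Acadl and Acads did not pass the test, with changes from −0.43 to −0.20. Acaa2 did not pass either (−0.38). Acadm, the medium-chain dehydrogenase, passed at −0.51, Hadh, the hydroxyacyl-CoA dehydrogenase, at −0.53, and the peroxisomal thiolases Acaa1a and Acaa1b at −0.59 and −0.74. The calls of Acadm, Hadh, Acaa1a and Acaa1b were lost in 9, 11, 11 and 4 of the 18 alternatives. The spiral genes that did not pass were all below 0, and the fall of the spiral was smaller in size than that of the shuttle, though this difference was not tested.

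Electrons from the acyl-CoA dehydrogenases pass through the flavoprotein of Etfa and Etfb to the oxidoreductase Etfdh. Etfdh (chromosome 3, 79603788 to 79629500, minus strand) was measured at 352, 375 and 394 CPM in untreated control livers and at 205, 218 and 236 CPM at 6 h. The change was −0.77 (SE 0.12, edgeR adjusted p = 0.00180), with no overlap and little spread within a group. Etfa (−0.31) and Etfb (−0.24) did not pass. Of the 5 genes that handle unsaturated chains, 4 fell. The isomerases Eci1 and Eci2 changed by −0.57 and −0.88 and the reductase Decr1 by −0.64, whereas the isomerase Ech1 did not pass (−0.48). Decr2, the peroxisomal dienoyl-CoA reductase, was measured at 243, 299.6 and 332 CPM and then at 161, 134 and 132 CPM, without overlap (−1.03, SE 0.14, edgeR adjusted p = 9.31e-04). Bdh1, which makes the ketone body β-hydroxybutyrate from acetoacetate, changed by −0.94 (edgeR adjusted p = 0.00622), and Pex11a, a peroxisome division factor, by −1.20.

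The deepest falls in control livers were among the thioesterases, which free fatty acids from acyl-CoA, and in Aldh3a2, which oxidises fatty aldehydes. Acot3 was measured at 82.1, 49.0 and 61.1 CPM in untreated control livers and at 15.9, 16.7 and 10.0 CPM at 6 h (−2.17, SE 0.33, edgeR adjusted p = 0.00232). Acot1, the cytosolic member, stood at 348.5, 388.5 and 502 CPM and then at 94.7, 94.0 and 141 CPM (−1.91, SE 0.21, adjusted p = 2.28e-04). In each of these genes the lowest untreated library was well above the highest treated one. Aldh3a2 (chromosome 11, 61223417 to 61267464, minus strand) was measured at 569.7, 772 and 786 CPM and then at 277.5, 179 and 154 CPM (−1.80, SE 0.23, edgeR adjusted p = 7.78e-04). Acot4 changed by −1.19. Acot2, the mitochondrial member of the cluster, did not pass (0.13). Vnn1, a pantetheinase, changed by −1.37 and Fabp1 by −0.71, but the Fabp1 call was lost in 9 of 18 alternatives.

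The 13 genes that were not called in control livers had changes from −1.15 (Cd36, a gene with a wide spread) to 0.74 (Pdk4). The secreted lipase inhibitor gene Angptl4 and the transcription factor gene Creb3l3, whose product acts beside PPARα in the fasted liver, split by library and are described by library because of that, a choice made after their values were seen. Angptl4 was at 183, 261 and 266.5 CPM in untreated control livers and at 128, 89.7 and 297 CPM after treatment. Creb3l3 stood at 247, 236 and 379 CPM, against 316, 357 and 407 CPM. In both genes replicate 3 was at the untreated level or above, and replicates 1 and 2 were below every untreated library. Without that replicate Angptl4 changed by −1.12 (edgeR adjusted p = 0.00260) and Creb3l3 by −0.58 (adjusted p = 0.0116), and with it neither passed. Both genes were picked for the gap between that replicate and the others, so these p-values are no test of a fall. The calls of 9 genes held in each of the 18 alternatives tried: Acsl1, Crat, Etfdh, Decr2, Acot3, Acot4, Acot1, Aldh3a2 and Vnn1.

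**Figure D2:**
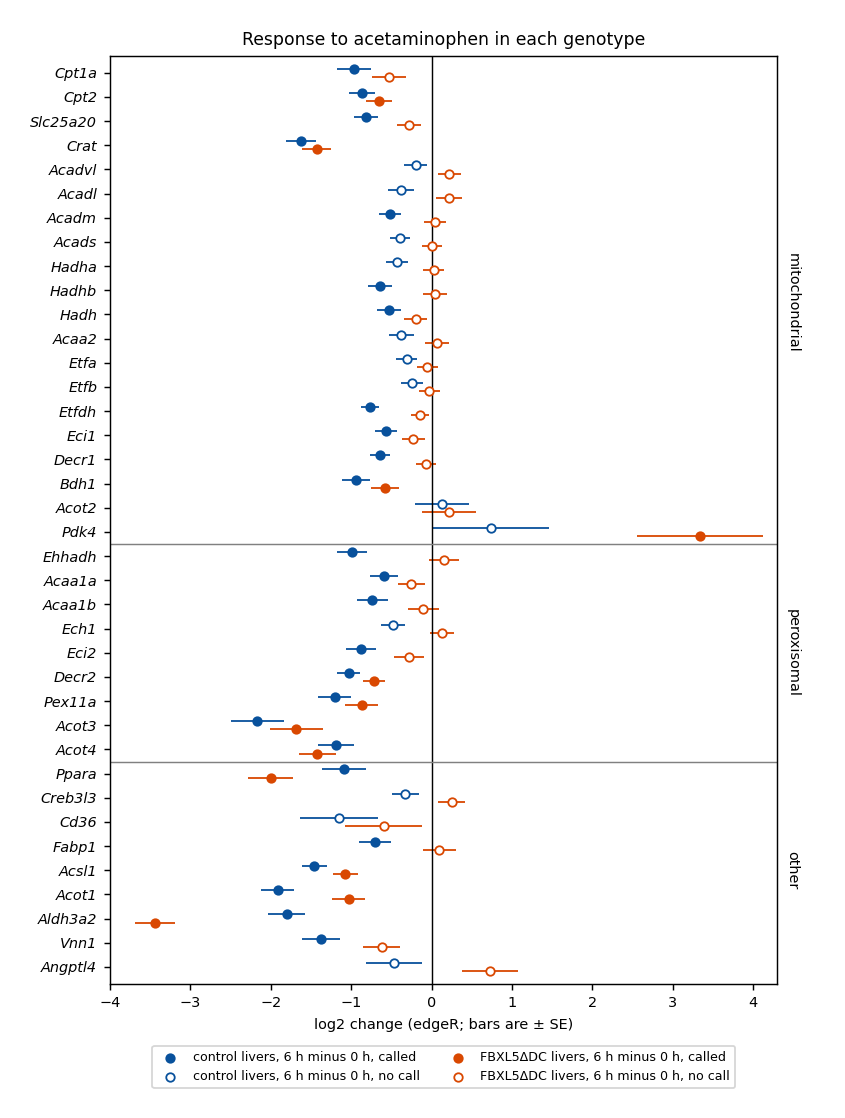
Log2 change from 0 h to 6 h for each gene in control (blue) and FBXL5ΔDC livers (orange), with bars of 1 SE and filled points where the edgeR adjusted p was below 0.05. Control points lie left of 0 for 36 of 38 genes, while most FBXL5ΔDC points of the mitochondrial block lie near 0, and Ppara and Aldh3a2 lie further left in FBXL5ΔDC livers.

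In FBXL5ΔDC livers, 11 of the 38 genes fell 6 h after acetaminophen and 1, Pdk4, rose. Over all tested genes 15.1% fell and 15.0% rose in this comparison, so the members' share of falls was larger than that of all genes and their share of rises smaller. The median change was −0.17 against 0.02 over all tested genes. All 11 genes were among the 25 that fell in control livers, and 14 of those 25 were not called here. Leaving out control 6 h replicate 3, whose values are not part of this contrast but bear on the filter, the scaling and the estimate of spread, gave 12 falls and 2 rises (17.3% and 16.9% of all tested genes), with Vnn1 and Angptl4 added.

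The receptor gene showed one of the larger falls. Ppara stood at 76.1, 95.2 and 83.2 CPM in untreated FBXL5ΔDC livers and at 16.1, 17.0 and 30.6 CPM at 6 h, without overlap (−1.999, SE 0.28, edgeR adjusted p = 4.21e-04). Aldh3a2 fell 10.8-fold, from 586.5, 659 and 586 CPM to 71.7, 43.3 and 54.0 CPM (−3.44, SE 0.25, adjusted p = 1.57e-05). Acsl1 was measured at 1852, 2285 and 1806 CPM and then at 953, 804 and 1072.5 CPM (−1.07, SE 0.15, adjusted p = 4.33e-04). The 3 thioesterase genes that fell in control livers fell here too. Acot3 stood at 21.9, 47.6 and 38.6 CPM and then at 12.6, 13.7 and 7.41 CPM (−1.68, SE 0.33, adjusted p = 0.00264). Acot4 stood at 88.6, 149 and 118 CPM and then at 43.8, 53.8 and 35.2 CPM (−1.42, SE 0.23, adjusted p = 8.02e-04), and Acot1 changed by −1.03.

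In the mitochondrial class Crat, Cpt2 and Bdh1 fell in FBXL5ΔDC livers. Crat was measured at 123, 143 and 130.2 CPM and then at 43.7, 59.3 and 44.3 CPM (−1.43, SE 0.18, edgeR adjusted p = 2.35e-04). Cpt2 changed by −0.65 and Bdh1 by −0.58, and the Bdh1 call was lost without FBXL5ΔDC 0 h replicates 2 or 3 or any FBXL5ΔDC 6 h replicate (adjusted p from 0.0509 to 0.102). In the peroxisomal class Decr2 stood at 296, 312 and 271.5 CPM and then at 175.5, 196 and 167 CPM (−0.71, SE 0.14, edgeR adjusted p = 0.00229). Pex11a changed by −0.87. In each of these genes all treated libraries were below all untreated ones.

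The 11 genes of the β-oxidation spiral gave no call in FBXL5ΔDC livers. None passed edgeR's test at an adjusted or an unadjusted p below 0.05, and their changes ran from −0.25 to 0.22 with a median of 0.05. Of the 17585 tested genes 7097 had an unadjusted p below 0.05 in this comparison. Ehhadh was measured at 1879.5, 2522 and 1937 CPM in untreated FBXL5ΔDC livers and at 2417, 2589 and 2063 CPM at 6 h (change 0.16, 95% confidence interval −0.25 to 0.56). Hadhb stood at 265, 292 and 270.2 CPM and then at 271.5, 344.5 and 239 CPM (0.05, interval −0.28 to 0.37). The treated and untreated libraries overlapped in each. Etfdh was measured at 363, 376 and 346.5 CPM and then at 320.5, 368 and 294 CPM (−0.14, interval −0.39 to 0.10). Cpt1a, at 510.1, 634 and 509 CPM and then at 330.0, 376 and 439.7 CPM, was lower in every treated library but did not pass (−0.53, SE 0.21, edgeR adjusted p = 0.0759).

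Pdk4 was the member that rose. It stood at 18.6, 16.2 and 17.6 CPM in untreated FBXL5ΔDC livers and at 98.6, 363 and 67.7 CPM at 6 h, with replicate 2 far above the others (3.33, SE 0.79, edgeR adjusted p = 0.0106). In control livers it was at 32.0, 26.5 and 37.3 CPM and then at 30.0, 18.0 and 112 CPM, where replicate 3 alone was high and no call was made (0.74, SE 0.72). Angptl4 was measured at 212.5, 236 and 248 CPM in untreated FBXL5ΔDC livers and at 401, 429 and 325 CPM at 6 h. Every treated library was above every untreated one, but the change did not pass (0.73, SE 0.35, edgeR adjusted p = 0.140). Without control 6 h replicate 3 in the fit the same change was called (adjusted p = 0.00395), but Angptl4 had been picked for its value in that library. Creb3l3 stood at 408, 404 and 407 CPM at 6 h, against 319, 368 and 337 CPM untreated (0.25, no call).

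**Figure D3:**
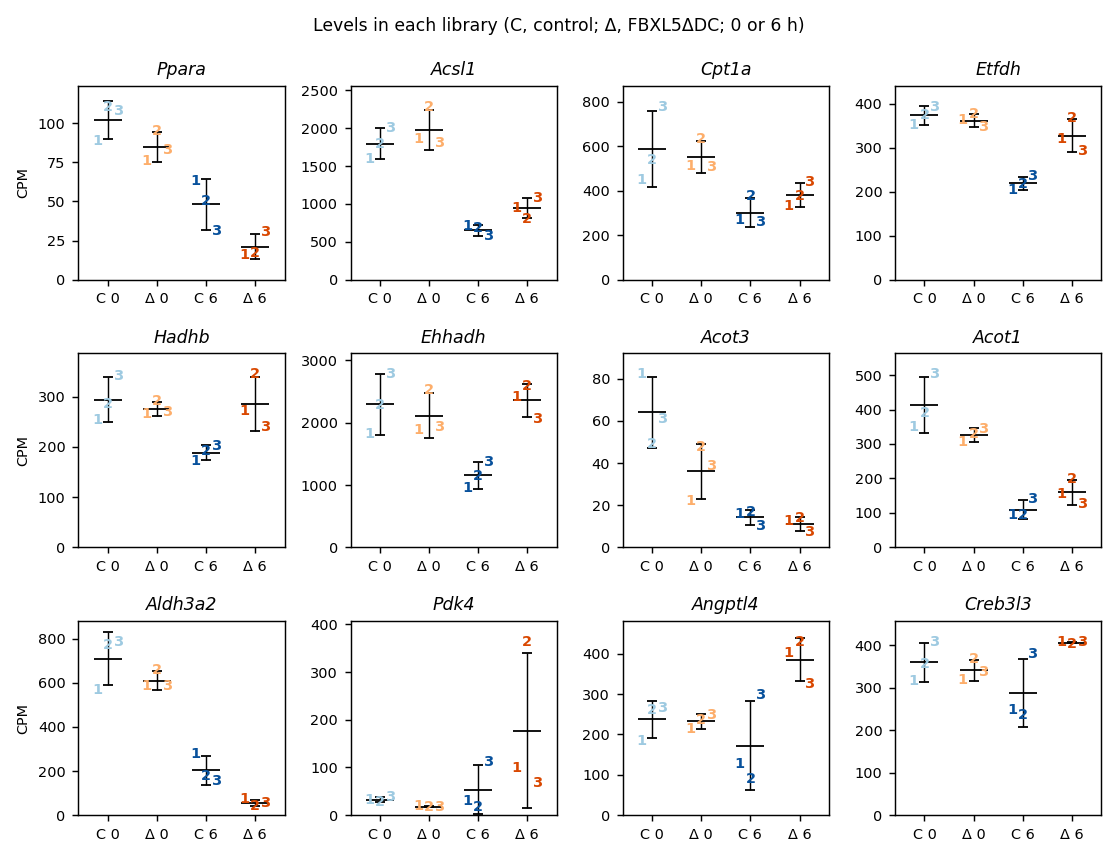
CPM of 12 genes in each library, with the replicate number as the symbol, the group mean as a long line and bars of 1 SD, for control (C) and FBXL5ΔDC (Δ) livers at 0 and 6 h. Ehhadh, Hadhb and Etfdh are lowest in the control 6 h group, Acsl1, Acot1 and Acot3 are low in both 6 h groups, and Aldh3a2 and Ppara are lowest in the FBXL5ΔDC 6 h group.

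Between untreated livers of the genotypes no member was called, and over all tested genes 0% were called lower and 0% higher. In edgeR 1 member had an unadjusted p below 0.05, against 465 of all tested genes, and DESeq2 called no member either (0.0210% of its tested genes were lower and 0.0281% higher). That member was Acot3, with a difference of −0.83 (SE 0.32, edgeR adjusted p = 1), at the library values given above. All FBXL5ΔDC libraries were below all control libraries for 3 members (Acot3, Acot1 and Pdk4), and for none were all above. Over all tested genes 5.80% were fully lower and 5.94% fully higher. The median difference was −0.11, and the interval for Ehhadh (−0.52 to 0.29) and for Ppara (−0.85 to 0.31) still allows differences of the size seen for other members after treatment.

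At 6 h the genotypes differed in 5 of the 38 genes. Ehhadh, Etfdh and Hadhb were higher in FBXL5ΔDC livers, and Aldh3a2 and Ppara were lower. Over all tested genes 1.35% were called higher and 4.51% lower. The median difference over the 38 genes was 0.39 against −0.01 over all tested genes. An unadjusted edgeR p below 0.05 was found for 24 of the 38, against 3998 of the 17585 tested genes. All FBXL5ΔDC libraries were above all control libraries for 16 members (9.74% of all tested genes) and below for 2 (11.2%). DESeq2 called 12 members higher and 2 lower, against 4.20% and 8.27% of its tested genes. With control 6 h replicate 3 left out, 18 members were called higher and 3 lower, against 10.1% and 12.9% of all tested genes. That library was chosen for its place near the FBXL5ΔDC 6 h libraries, so a rise in calls was to be foreseen. Leaving out control 6 h replicate 1 gave 0 higher and 1 lower, and leaving out control 6 h replicate 2 or FBXL5ΔDC 6 h replicate 2 gave 1 higher and 1 lower. The calls over all tested genes also fell, from 238 higher and 793 lower with all libraries to 35 and 215, 49 and 254, and 54 and 242 in these 3 fits. The 6 higher members without FBXL5ΔDC 6 h replicate 3 (124 of all tested genes) and the 1 lower member without FBXL5ΔDC 6 h replicate 1 (325 of all tested genes) also moved the counts, so they rest on few livers.

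Ehhadh had a mean at 6 h of 1154 ± 211 CPM in the control group and 2356.5 ± 268 CPM in the FBXL5ΔDC group (n = 3 each), a 2.04-fold difference (1.03, SE 0.19, edgeR adjusted p = 0.0117). The lowest FBXL5ΔDC library, 2063 CPM, was above the highest control library, 1373 CPM. The edgeR adjusted p was 0.0517 without control 6 h replicate 1 and 0.116 when only the groups of this contrast were fitted. Etfdh was 1.49-fold higher (0.58, SE 0.11, edgeR adjusted p = 0.0157), and its call was lost without control 6 h replicates 1 or 2 or FBXL5ΔDC 6 h replicate 2 (adjusted p = 0.0730, 0.0555 and 0.0598). The Etfdh call was also lost when only the groups of this contrast were fitted (edgeR adjusted p = 0.171). Hadhb was 1.51-fold higher (0.60, SE 0.15, edgeR adjusted p = 0.0379), and 10 of the 18 alternatives lost its call. Without control 6 h replicate 3 the differences were 1.17 for Ehhadh, 0.63 for Etfdh and 0.65 for Hadhb (edgeR adjusted p = 7.84e-04, 0.00225 and 0.0110). The FBXL5ΔDC mean at 6 h lay within the range of the 6 untreated libraries for Ehhadh and Hadhb and below that range for Etfdh (327 ± 37.6 CPM). The control 6 h libraries lay below it in all 3 genes.

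Aldh3a2 was the clearest difference in the other direction. Its control libraries at 6 h stood at 277.5, 179 and 154 CPM and its FBXL5ΔDC libraries at 71.7, 43.3 and 54.0 CPM, 3.61-fold lower (−1.85, SE 0.23, edgeR adjusted p = 0.00367). The call held without each library in turn and was lost when only these 6 libraries were fitted (edgeR adjusted p = 0.0715). That fit called 6 lower and 0 higher over all tested genes. Ppara was 2.27-fold lower (−1.18, SE 0.27, edgeR adjusted p = 0.0276), with control 6 h replicate 3 at 31.0 CPM just above the highest FBXL5ΔDC library at 30.6 CPM. The Ppara call was lost without control 6 h replicate 1 or 2 (adjusted p = 0.115 and 0.0933), as it was without FBXL5ΔDC 6 h replicate 1 or 2 (0.0971 and 0.106) and with a replicate block (0.0556). It was also lost when only the groups of this contrast were fitted (edgeR adjusted p = 0.180).

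The carnitine shuttle and the thioesterases gave no call between genotypes at 6 h with all libraries. Slc25a20 came nearest, at 97.7, 80.7 and 112 CPM in control and 137, 166 and 120 CPM in FBXL5ΔDC livers, without overlap (0.54, SE 0.15, edgeR adjusted p = 0.0533). It was called in 5 of the 18 alternatives: RLE scaling, upper-quartile scaling, DESeq2, and without control 6 h replicate 3 or FBXL5ΔDC 6 h replicate 3. Crat stood at 49.8 ± 10.3 and 49.1 ± 8.84 CPM (−0.02, interval −0.41 to 0.37), and Cpt1a differed by 0.34 (interval −0.12 to 0.79). Among the thioesterases, Acot4 (−0.48), Acot2 (−0.45) and Acot3 (−0.34) were below 0 and Acot1 (0.54) was above. Without control 6 h replicate 3, Acot1 was called higher (0.76, edgeR adjusted p = 0.00893) and Acot4 lower (−0.67, adjusted p = 0.0348). Angptl4 differed by 1.17 (SE 0.35, edgeR adjusted p = 0.0748). Without control 6 h replicate 3, the control library with the highest Angptl4, it differed by 1.82 (adjusted p = 2.78e-05). Angptl4 had been picked for its value in that library, so this p-value is no test of the difference.

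**Figure D4:**
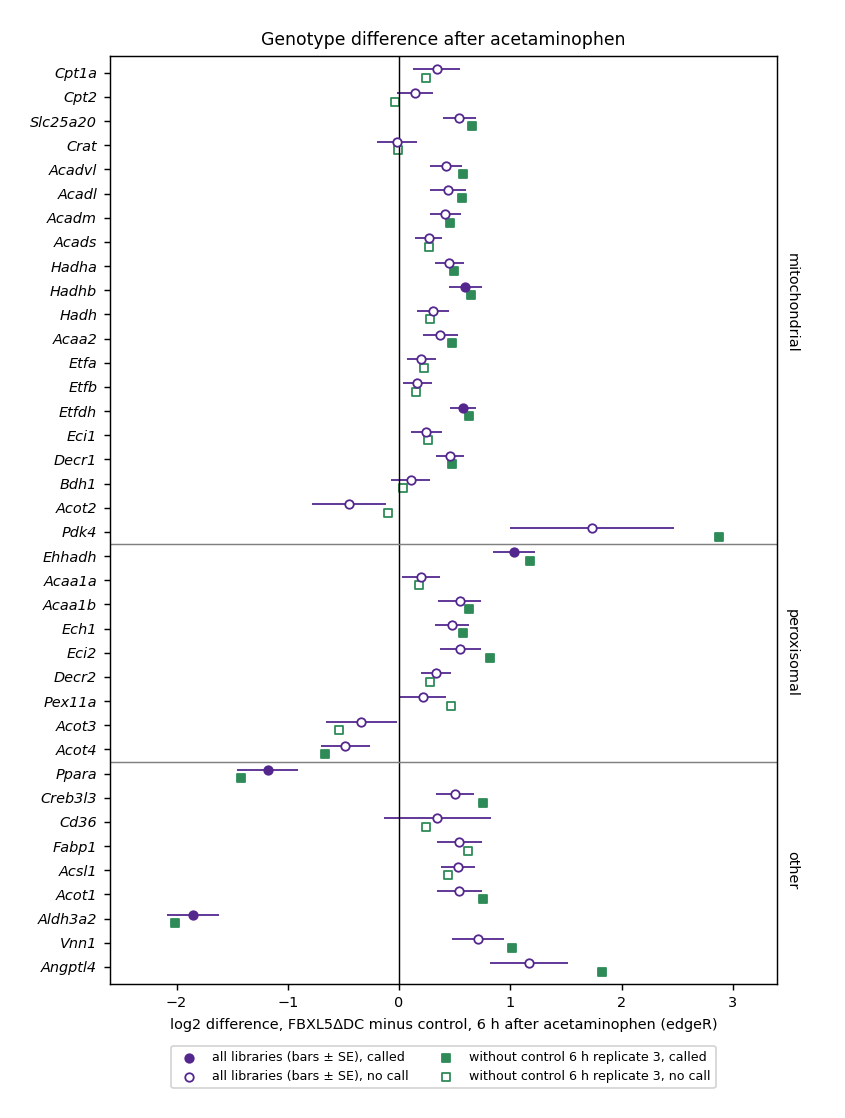
Log2 difference between FBXL5ΔDC and control livers at 6 h for each gene, in all libraries (purple circles, bars of 1 SE) and without control 6 h replicate 3 (green squares), filled where the edgeR adjusted p was below 0.05. Most points lie right of 0, Ppara and Aldh3a2 lie left of it, and 5 circles but 21 squares are filled.

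Whether the responses of the genotypes differ was tested directly as the difference between them, FBXL5ΔDC minus control. No member passed edgeR's test (background 0.256% lower and 0.0341% higher). In edgeR 20 members had an unadjusted p below 0.05, against 2543 of the 17585 tested genes. DESeq2 called 1 lower and 3 higher (2.87% and 1.28% of its tested genes). The estimate was above 0 for 35 of 38 members and below 0 for 3, while 8971 of the 17585 tested genes were below 0. The median was 0.45 against −0.02 over all tested genes. The smallest adjusted p-values in edgeR belonged to Aldh3a2 (−1.63, SE 0.32, adjusted p = 0.0614), Ehhadh (1.15, SE 0.27, adjusted p = 0.0881) and Etfdh (0.62, SE 0.16, adjusted p = 0.113). In the 11 spiral genes the estimates ran from 0.33 to 1.15, and in the shuttle from 0.19 to 0.54. When control 6 h replicate 3 was left out, 13 members were called higher, among them Ehhadh, Etfdh, Hadhb, Decr1 and Slc25a20, and Ppara and Aldh3a2 were called lower (background 5.97% higher and 7.74% lower). No other fit that left out a single library called a member. Because that library was chosen for lying near the FBXL5ΔDC 6 h libraries, its fit cannot decide whether the responses differ. The loss of a call from one genotype to the other is therefore not shown to be a difference in response with all 12 libraries.

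Summed by class, the peroxisomal genes took 0.690 ± 0.116% of scaled counts in untreated control livers, 0.387 ± 0.0561% in control livers at 6 h, 0.640 ± 0.0697% in untreated FBXL5ΔDC livers and 0.610 ± 0.0894% in FBXL5ΔDC livers at 6 h (n = 3 each). The mitochondrial genes took 0.651 ± 0.0805, 0.455 ± 0.0320, 0.614 ± 0.0307 and 0.594 ± 0.0946% in the same order. The other 9 genes took 0.564 ± 0.0855, 0.267 ± 0.0227, 0.528 ± 0.0625 and 0.371 ± 0.0275%, and so were lower at 6 h in either genotype. In control 6 h replicates 1 and 2 alone the peroxisomal genes took 0.326 and 0.397%, the mitochondrial genes 0.422 and 0.455% and the others 0.246 and 0.263%. A sum is led by its abundant genes, here Ehhadh, Acaa1b, Fabp1 and Acsl1.

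The summed level of hepatocyte markers also differed between libraries, and its part in these results was not tested. Summed over 10 hepatocyte markers, the level ran from 90214 to 99113 CPM in untreated control livers, 79260 to 125713 CPM in control livers at 6 h (the highest in replicate 3), 96514 to 106073 CPM in untreated FBXL5ΔDC livers and 116980 to 149043 CPM in FBXL5ΔDC livers at 6 h. Alb is the most abundant of them, with a mean at 6 h of 65218 CPM in the control group and 98075 CPM in the FBXL5ΔDC group. In the FBXL5ΔDC response Alb alone of the 10 was called higher and 1 was called lower (15.0% and 15.1% of all tested genes). In the control response 0 were called higher and 1 lower (6.36% and 4.20%). As a percentage of these markers the 38 genes were at 17.1, 19.3 and 24.2% in untreated control livers and 12.5, 13.0 and 9.66% at 6 h. They were at 16.0, 20.3 and 16.4% in untreated FBXL5ΔDC livers and 11.6, 11.9 and 11.6% at 6 h. On that scale the 6 h groups overlapped. With Alb left out of the markers the values were 46.9, 46.3 and 54.6% in untreated control livers and 31.7, 36.8 and 36.2% at 6 h. They were 39.5, 47.0 and 42.5% in untreated FBXL5ΔDC livers and 45.4, 47.1 and 37.2% at 6 h. On this scale the 6 h groups did not overlap, but only narrowly (36.8% in control replicate 2 against 37.2% in FBXL5ΔDC replicate 3). The FBXL5ΔDC 6 h libraries overlapped the untreated FBXL5ΔDC libraries. This scale was chosen after the data had been seen and carries no test.

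**Figure D5:**
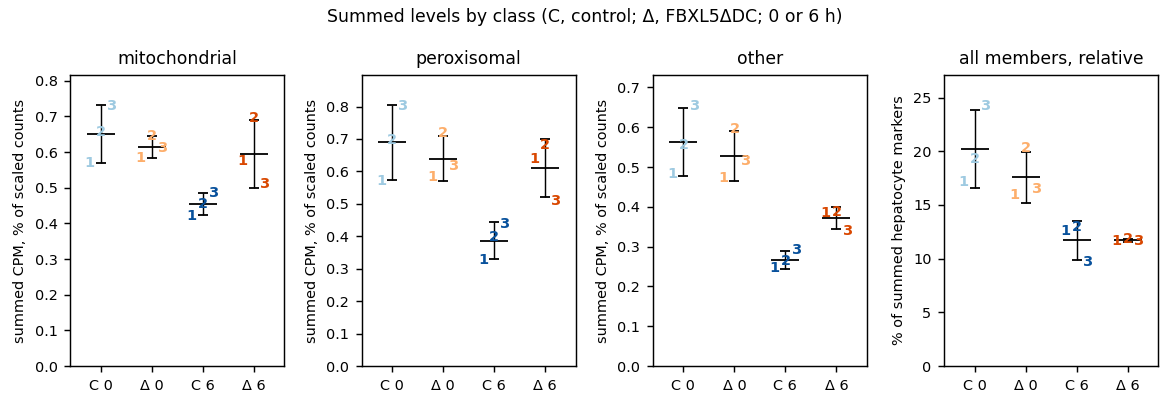
Summed CPM of the mitochondrial, peroxisomal and other genes as a percentage of scaled counts, and of all 38 genes as a percentage of 10 summed hepatocyte markers, in each library (replicate number as symbol), with the group mean and bars of 1 SD. The control 6 h group is lowest in the 3 class panels, and the 6 h groups overlap in the panel relative to hepatocyte markers.

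Other cell and zone markers moved as well, and their part in the results above was not tested. The sum of 8 pericentral hepatocyte markers, of which Cyp2e1 is also among the 10 above, was 8605 to 11656 CPM in control livers at 0 h. At 6 h it was 3153 to 5341 CPM, with 4 of 8 genes called lower (4.20% of all tested genes). In FBXL5ΔDC livers it was 10952 to 11767 CPM at 0 h and 862 to 1411 CPM at 6 h, with 8 of 8 called lower (15.1% of all tested genes). None of the 8 was at 0 in all libraries of a group. The sum of 6 sinusoidal endothelial markers at 6 h was 118 to 204 CPM in the control group and 245 to 286 CPM in the FBXL5ΔDC group. In the FBXL5ΔDC response 5 of the 6 were called higher (15.0% of all tested genes). Fabp4 and Cidec, which belong to the adipocyte list and are also targets of the related receptor PPARγ, supplied all of that list's 129 to 185 CPM in FBXL5ΔDC livers at 6 h, while Adipoq, Plin1 and Lep were at 0 in all 3 of those libraries. The sum of the list was 7.96 to 63.0 CPM in untreated control livers and 6.12 to 12.8 CPM in untreated FBXL5ΔDC livers. In control livers at 6 h it was 13.4, 11.4 and 139 CPM in replicates 1, 2 and 3, so replicate 3 lay within the FBXL5ΔDC 6 h range. Transcripts encoded in mitochondrial DNA took 8.94 to 9.43% of counts in the FBXL5ΔDC 6 h libraries, and 5.32 to 7.05% in the other 9.

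A further 60 genes of fatty acid handling set these values in the pathway at large. They were drawn from general knowledge, but with earlier results of these data known. Among them are peroxins, acyl-CoA synthetases, transporters, PPAR cofactors and Fabp4, which is also in the adipocyte list. In control livers 20 of the 60 fell and 2 rose (4.20% and 6.36% of all tested genes), with a median change of −0.45. The smallest adjusted p-values belonged to the thioesterase Acot12 (−0.94), the kinase Pdk1 (−1.06), the peroxisomal carnitine octanoyltransferase Crot (−1.10) and the monocarboxylate carrier Slc16a7 (−0.99). In FBXL5ΔDC livers 27 fell and 4 rose (15.1% and 15.0% of all tested genes), with a median of −0.40. By smallest adjusted p the calls were led by Acacb, which makes the malonyl-CoA that inhibits carnitine palmitoyltransferase (−1.73). Acsm3 (−1.10), the malonyl-CoA decarboxylase Mlycd (−1.03) and the transporter Slc27a4 (−0.73) were next. At 6 h the genotypes differed in 5 of the 60, with 2 higher and 3 lower (1.35% and 4.51% of all tested genes). Acot12 (0.57) and the peroxisomal bifunctional enzyme Hsd17b4 (0.47) were higher in FBXL5ΔDC livers. The corepressor gene Nr0b2 (−1.87) and Slc27a4 were among the 3 lower. The median change of the wider list in FBXL5ΔDC livers, −0.40, stood beside −0.17 for the 38 members, and its median difference between genotypes at 6 h was 0.09. No gene of the 60 was called in the difference between responses (0.256% of all tested genes were lower and 0.0341% higher). Without control 6 h replicate 3, 19 of the 60 fell and 2 rose in control livers (3.86% and 5.23% of all tested genes). In that fit 29 fell and 8 rose in FBXL5ΔDC livers (17.3% and 16.9%). Between genotypes at 6 h 12 were higher and 11 lower (10.1% and 12.9%). In the difference between responses 8 were higher and 7 lower (5.97% and 7.74%).

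Some counts are less certain because their transcripts share sequence or exons with other genes. Of the 75-base stretches of the annotated transcripts, 32.3% in Acaa1b, 12.6% in Acaa1a, 21.2% in Acot2, 15.0% in Acot1 and 18.1% in Acot3 also occurred in another gene, in most cases the neighbouring paralog. The shares were 39.6% in Etfb (with Gm45233) and 16.7% in Hadhb (mostly with Gm13910), and 0% in Ppara, Ehhadh and Aldh3a2. Of Acadvl exons 42.9% overlap Dvl2 on the other strand, and no source used here gives the strand setting of the counting, so reads of this pair may not have been told apart.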

How the data were processed

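RNA from 12 whole livers was measured, 3 per group. The submitters' processing notes name Trim Galore 0.6.6 for trimming, HISAT2 2.2.1 for alignment and the build mm10. The counting program and its strand setting are not given in the sources used here. The authors deposited estimated counts per gene, not normalised, for 55401 genes. All were whole numbers, with low values piling up at multiples of 4, so they needed no rounding. The plan had assumed raw counts, and its test was kept. Depth was 67173096 to 72512319 counts per library, and the number of fragments behind a count is not known.

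Genes were filtered with filterByExpr by group, scaled by TMM and fitted in edgeR 4.0.16 (quasi-likelihood, robust) under R 4.3.3, with a coefficient per group and 8 residual degrees of freedom. The fit was checked on simulated data. Calls used Benjamini-Hochberg adjusted p below 0.05 over 17585 genes. Confidence intervals (95%) used the moderated degrees of freedom. Alternatives were DESeq2 1.42.0, RLE and upper-quartile scaling, no filter, only the groups of a contrast, a replicate block and each library left out. Gene positions came from GENCODE vM21, which matched 98.1% of identifiers with their version. The 38 genes, their classes and the other lists were chosen with earlier results of these data known. All 38 were described. Those called in a comparison with the smallest adjusted p of each class, plus Ppara and Cpt1a, were given by library; of the 60 further genes, up to 4 called per comparison were named by smallest adjusted p. Of 13 cell type and zone lists, 4 are given with the report and 9 under other observations. One result of the 60 genes is not reported here.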

Additional observations from a re-analysis of the deposited data

How the results depend on the processing

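No called member changed direction under any of the 18 alternatives, and between untreated livers no member was called in any of them. The 25 falls in control livers numbered 9 with only the groups of the contrast, and 16 to 28 without one library each (16 without control 0 h replicate 3). Over all tested genes the 739 falls numbered 167 with only those groups and 314 to 843 without one library (367 without control 0 h replicate 3). The 1 rise in FBXL5ΔDC livers numbered 2 with only the groups of that contrast, and 1 to 2 without one library. The 11 falls numbered 13 with only those groups and 10 to 12 without one library. All tested genes gave 2638 rises and 2648 falls with all libraries, and 3016 and 2987 with only those groups. Without one library they gave 1849 to 3117 rises and 1960 to 3188 falls. At 6 h, the 3 members higher in FBXL5ΔDC livers numbered 6 with RLE scaling, 5 with upper-quartile scaling, 12 with DESeq2, 0 with only the groups of the contrast and 0 to 18 without one library. Over all tested genes the 238 higher calls numbered 260, 305, 756, 0 and 35 to 1873 in the same order of fits. The 2 lower members numbered 0 with only the groups of the contrast, 1 with the replicate block and 1 to 3 without one library. Over all tested genes the 793 lower calls numbered 6, 547 and 215 to 2376 in these fits. The difference between responses, with 0 calls, had 1 lower and 3 higher members with DESeq2, and 0 to 2 lower and 0 to 13 higher without one library. All tested genes gave 45 lower and 6 higher with all libraries, and 500 and 224 with DESeq2. Without one library they gave 1 to 1430 lower and 0 to 1103 higher. Among fits without one library, the upper ends between genotypes at 6 h and in the difference between responses came without control 6 h replicate 3. Fits to the groups of a contrast alone hold fewer libraries, and the cause of the other shifts was not tested.

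Replicate numbers did not pair the libraries: correlations of the deviations of same-numbered libraries ran from −0.0614 to 0.0441. With the replicate block 23 members fell in control livers, 22 of them among the 25 (634 of all tested genes fell, against 739 without the block). Over all genes, upper-quartile scaling moved the share of falls among calls in control livers from 39.8 to 50.7%. With 3 libraries per group the smallest member change called in control livers in the main fit was −0.51 (Acadm). This is no general limit, since the spread differs between genes. Smaller changes were called in some alternatives, such as Acads (−0.41, DESeq2 adjusted p = 0.0140) and Hadha (−0.44, DESeq2 adjusted p = 0.0181).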

Other observations

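Markers of the other cell types that whole liver could hold were at low summed levels beside those of hepatocytes, and no explanation was tested with them. Monocyte and infiltrating macrophage markers (6 genes) summed to 23.3 to 25.5 CPM in untreated control livers, 47.7 to 75.5 CPM in control livers at 6 h, 20.2 to 38.9 CPM in untreated FBXL5ΔDC livers and 87.8 to 115 CPM in FBXL5ΔDC livers at 6 h. In the same order of groups, 7 Kupffer cell markers summed to 101 to 122, 127 to 163, 118 to 156 and 143 to 250 CPM, and 7 neutrophil markers to 1.02 to 1.30, 2.40 to 3.28, 0.73 to 1.87 and 2.89 to 8.63 CPM. Stellate cell markers (6 genes) summed to 79.6 to 121, 101 to 156, 54.1 to 97.9 and 173 to 214 CPM, and 5 cholangiocyte markers to 15.0 to 23.5, 27.2 to 82.0, 20.0 to 25.6 and 68.0 to 263 CPM. In the FBXL5ΔDC response 4 of the 5 cholangiocyte markers rose, with a median change of 1.93. So did 3 of 6 stellate, 2 of 6 monocyte and macrophage, 2 of 7 Kupffer cell and 2 of 4 tested neutrophil markers. None of these lists had a called fall in that response, in which 15.0% of all tested genes rose and 15.1% fell. In the control response 1 marker of each of these lists rose except the stellate list, which had none (6.36% of all tested genes rose). Their part in the results was not tested. In control livers at 6 h, replicate 3 held the highest stellate, cholangiocyte, endothelial, adipocyte and macrophage sums. The lymphocyte list had no call in either response. Dendritic cell markers (7 genes), the cell type in which Cre is driven, summed to 4.41 to 7.63 CPM over all 12 libraries, with none called in any comparison. Lymphocyte markers (5 genes) summed to 0.52 to 1.67 CPM and 5 erythroid markers to 246 to 577 CPM over all libraries. The 6 periportal hepatocyte markers summed to 5449 to 6137, 2830 to 5248, 6209 to 6406 and 3878 to 4782 CPM in the order above.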
